A study of Mus musculus with 5 samples.

Results

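Glutamate receptor genes and the genes for the scaffold proteins beneath them were followed through 5 lists of REST binding peaks from the embryonic mouse pancreas. The members were the 37 protein-coding genes, of 22225 in the GENCODE vM1 annotation of mm9, whose symbol is Gria, Grik, Grin, Grid or Grm with a number and, for some, a letter, together with Dlg1 to Dlg4, Dlgap1 to Dlgap4 and Shank1 to Shank3. They comprised 4 AMPA, 5 kainate, 7 NMDA and 2 delta receptor subunits, 8 metabotropic receptors, and 4 Dlg, 4 Dlgap and 3 Shank scaffolds. A peak was given to a member when it lay inside the gene body or within 50 kb of the gene's start, and a site is the union of peaks that overlapped between libraries. By this rule 31 of 1860 sites belonged to members, of which 26 were called in both E13.5 libraries. The rule uses gene names and not peak values, but the members were chosen with earlier results of these data known.

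REST binding was measured by chromatin immunoprecipitation and sequencing (ChIP-seq). The antibody was the mouse monoclonal 12C11, which recognises the C-terminal region of REST. The chromatin came from whole pancreas of untreated wild-type embryos of a mixed strain with C57BL/6, taken on embryonic day E13.5 for 2 libraries (A and B) and on day E18.5 for 3 libraries (A, B and C). Each E13.5 library was a pool of 4 to 6 pancreases and each E18.5 library a pool of 3 to 4, and the labels call libraries of a stage biological replicates. Because the material was whole pancreas, the cell type behind a peak is not known, and the peak lists hold no expression values against which the tissue could be checked. The E13.5 lists had 1400 and 1333 peaks, and those of E18.5 A, B and C had 541, 417 and 226. Read depth is unknown for every library, and a peak that was not called is not a measurement of absent binding.

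REST is a zinc-finger repressor that binds a long DNA element, RE1, and recruits histone-modifying corepressors to neuronal genes in cells that are not neurons. At an excitatory synapse glutamate opens AMPA, kainate and NMDA receptor channels and also acts on metabotropic receptors, which signal through G proteins. Dlg proteins (the PSD-95 family) bind the tails of receptors, Dlgap proteins link Dlg to Shank, and Shank proteins tie this layer to the actin skeleton. Grin1 and Gria2 have long been described as carrying RE1 elements by their promoters, and some glutamate receptors are also made by the hormone-secreting cells of the pancreatic islet.

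The RE1 element was learned from the 1157 sites of both E13.5 libraries that belonged to no member and could be read in the genome, so that the members had no part in it. It is 21 bases long, and position 19, at which no base reached 50%, is written N.

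Learned RE1 consensus: TTCAGCACCATGGACAGCNCC

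A match was a 21-base stretch, within a 500-bp window centred on the site, that scored above the level passed by 1% of windows 10 kb downstream. Of the 26 member sites of both E13.5 libraries, 22 held such a match. Elements are shown because they allow the binding sequence to be compared from gene to gene. Each is written 5′ to 3′ in the direction of the consensus, with capitals marking letters equal to it. The receptor elements were:

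Gria2: TTtAGCACCgcGGACAGCgCt
Grik2: TTCAGgACCtTGGACAGCaCt
Grik3, 12.4 kb into the gene: TTCAGCACCAcGGAgAGCggC
Grik3, 100 kb into the gene: aTCAGCACCtcGGAgAGCtCC
Grik4, 125 kb into the gene: TcCAGgACCtTGGACAGtgCt
Grik4, 292 kb into the gene: cTagGtACCATGGACAGCtCC
Grin1: TTCAGCACCtcGGACAGCaCC
Grin2a: gTCAGtACCATGGACAGagaa
Grid1, 3.35 kb upstream: TcagGtACCcTGGACAGCtCC
Grid1, 47.6 kb into the gene: gTCAGCACCtcGGACAGCgCC
Grm4: TTCAGCACCtcGGAgAGCggC
Grm5: TTCAGCACCtTGGACAGgtaC

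The scaffold elements were:

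Dlgap1: gcCAGgACCAaGGcCAGCggC
Dlgap2, 23.1 kb upstream: gTCAGCACCAaGGACAGCaCC
Dlgap2, 297 kb into the gene: TTCAGCACaAaGGACAGCgCt
Dlgap3: TTCAGtACCcgGGACAGCtCC
Dlgap4, 39.3 kb into the gene: TTCAGCACCATGGcCAGCggC
Dlgap4, 63.4 kb into the gene: TTCAGgACCAcGGACAaCtCC
Shank1: TcCAGCACCgcGGACAGCtCC
Shank2, 158 kb into the gene: cTaAGtACCAcGGACAGCtCt
Shank2, 293 kb into the gene: TTCAGCACCATGGACAGagga

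The 22 elements, including 1 not shown, were all different, and none was identical to the consensus. They departed from its 20 fixed letters at 2 to 6 positions (median 3). Grin1, the upstream Dlgap2 site and the Dlgap4 site at 39.3 kb came closest, with 2 mismatches each, and Dlgap1 was farthest, with 6. Positions 5, 7, 8, 12, 13 and 16 carried the consensus letter in 22 of 22 elements. Position 6 carried it in 12, and positions 10 and 11, the spacer between the left and right arms of the element, carried it in 10 and 9. The elements lay on the coding strand of the gene in 11 cases and on the opposite strand in 11. Their centres lay at a median of 9 bp from the centre of the E13.5 A peak, and at most 98 bp away.

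Matches were found at 84.6% of member sites (22 of 26, exact 95% binomial interval 65.1 to 95.6%), at 81.1% of the other sites of both E13.5 libraries (938 of 1157) and at 0.951% of the windows 10 kb downstream (11 of 1157). The matrix was fitted to the other sites and the limit set on the downstream windows, so these shares are no independent test of either, and the interval of the members contains the value of the other sites. At the stricter level that 0.1% of downstream windows pass, 18 of 26 member sites kept a match, beside 65.9% of the other sites. The median score was 26.0 bits at members and 25.5 bits at the other sites.

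The remaining 4 member sites, at Grm2, Grm8, Dlg2 and Shank3, had no whole match. After their values were seen, these windows were searched for the left arm (positions 1 to 9) and the right arm (positions 12 to 21) on the same strand, in this order, with at most 2 mismatches in each and 0 to 30 bases between them. All 4 held such a pair. They are shown for the spacing of their arms. The search admitted only arms near the consensus, and sites with a whole match had been set aside. Arms near the consensus at another spacing thus partly follow from this choice. Capitals mark consensus letters in the arms.

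Grm2, 7 bases between the arms: TTCAGCACCacactgtGGACAGCtCC
Grm8, 1 base between the arms: TTCAGgACCtGGACAGttCC
Dlg2, 8 bases between the arms: TTCAGaACtttcctgatGGACAGCtCC
Shank3, 7 bases between the arms: aTCAGCACCctcgggtGGACAGCtCC

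The Grm2 arms matched the consensus at every fixed letter, and those of Shank3 at all but 1. Dlg2 had 2 mismatches, both in the left arm, and Grm8 had 1 in each arm. In the whole element 2 bases separate the arms. The stretch around the Grm2 arms lies immediately upstream of the gene (chr9:106558617-106558722, mm9, minus strand, with both arms in capitals here):

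Grm2: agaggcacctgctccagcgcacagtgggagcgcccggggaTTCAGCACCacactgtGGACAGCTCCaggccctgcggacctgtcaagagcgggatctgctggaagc

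The same search found a pair of arms at 163 of 219 other sites without a whole match (74.4%) and in 89 of 1157 windows 10 kb downstream (7.69%). Spacings were not spread evenly. At the other sites 20 pairs stood 7 bases apart, 47 stood 8 apart, 34 stood 9 apart, and 18 stood 1 apart, and none stood 6 or 12 apart. A spacing of 7 or 8 bases, as at Grm2, Shank3 and Dlg2, was found at 30.6% of the other sites without a whole match and in 0.951% of the downstream windows.

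**Figure D1:**
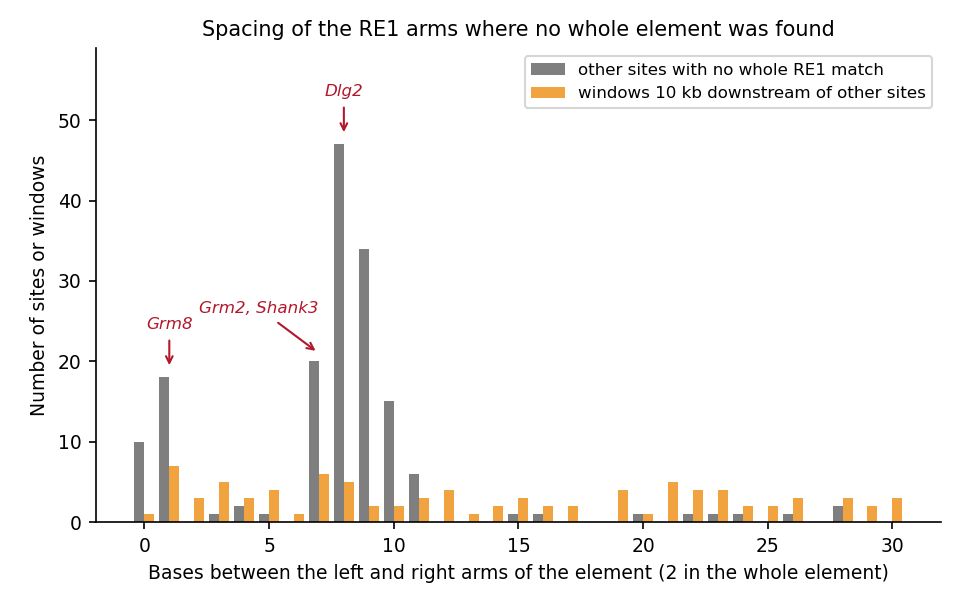
Bases between the left and right arms of RE1 (horizontal axis) against the number of sites or windows (vertical axis), for the other sites of both E13.5 libraries without a whole match (grey) and for windows 10 kb downstream (orange), with arrows at the spacings of the 4 member sites. Grey bars cluster at 7 to 11 bases and at 0 to 1, and the member sites lie at 1 (Grm8), 7 (Grm2 and Shank3) and 8 (Dlg2).

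Some sites held more than 1 whole element without overlap. This was seen at 3 of 26 member sites (11.5%) and at 89 of 1157 other sites (7.69%). The 3 member sites were those of Dlgap2 (upstream), Dlgap3 and Dlgap4 (63.4 kb into the gene). The Dlgap2 site held 4 elements, all on the plus strand, and 2 of them were the same 21 letters. The stretch is shown because it contains this repeat (chr8:14072624-14072799, mm9, plus strand, elements in capitals):

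Dlgap2: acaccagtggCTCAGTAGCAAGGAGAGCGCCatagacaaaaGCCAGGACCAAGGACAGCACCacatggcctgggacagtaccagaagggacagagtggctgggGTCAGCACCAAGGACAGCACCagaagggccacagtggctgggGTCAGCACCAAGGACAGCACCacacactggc

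This stretch scored highest of all member sites in both E13.5 libraries. The Dlgap3 and Dlgap4 sites held 2 elements each. The weaker element scored 22.1 bits at Dlgap3 and 17.5 bits, with 6 mismatches, at Dlgap4. The weakest Dlgap2 element scored 14.6 bits. All of these passed the limit of 10.2 bits but not the stricter one of 22.9 bits.

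Among the 37 genes, 20 (54.1%) had a site called in both E13.5 libraries, beside 6.93% of all protein-coding genes by the same rule. The other 17 had no site in any library, so the count with a site in any library was also 20 (9.84% of all genes). Member genes are long, with a median of 240 kb beside 15.5 kb for all coding genes, and the rule searches more sequence at a long gene. Of the 735 coding genes at least as long as the median member, 142 (19.3%) had such a site. Within the members, 11 of 19 genes at or above the median length and 9 of 18 shorter genes had one. Counted per length, member regions held 26 sites in 15.9 Mb, or 1.63 per Mb, and the regions of all coding genes 912 sites in 1552 Mb, or 0.587 per Mb. Counting only peaks within 50 kb of the start on either side left out the deeper gene body but kept its first part. By this count 15 of 37 members had a site (6.32% of all genes), and within 5 kb 8 of 37 (1.57%). No set test was run on these counts.

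The families differed in how many of their genes had a site. All 4 Dlgap and all 3 Shank genes had one in both E13.5 libraries, as did 3 of 5 kainate subunits, 2 of 7 NMDA subunits, 1 of 4 AMPA subunits and 1 of 4 Dlg genes. The site counted for Shank3 lay 46.1 kb upstream of it and nearest to the start of Mapk8ip2. The genes without any site included Gria1, Gria3 and Gria4, Grik1 and Grik5, Grin2b, Grin2c, Grin2d, Grin3a and Grin3b, Grm3, Grm6 and Grm7, and Dlg1, Dlg3 and Dlg4. One of them, Grm7, was among the longest members at 922 kb. The part of gene length in these family counts was not tested.

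**Figure D2:**
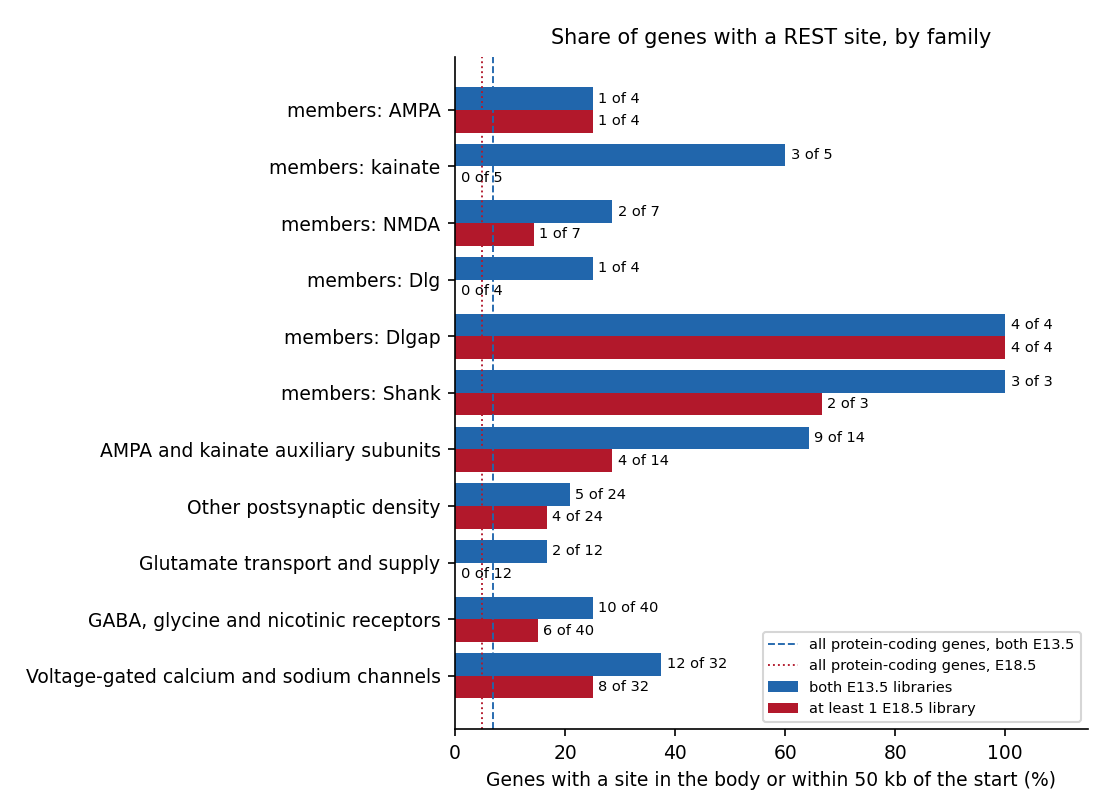
Percent of genes (horizontal axis) with a site in both E13.5 libraries (blue) or in at least 1 E18.5 library (red), for 6 member families and for 5 other lists (vertical axis), with the percent over all protein-coding genes as dashed and dotted lines and counts beside the bars. Dlgap genes reach 4 of 4 in both, and kainate and Dlg genes have no E18.5 site.

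The values that follow are the deposited peak scores, which are whole numbers of unstated unit. They ran from 4 to 73 in E13.5 A, 5 to 130 in E13.5 B, 3 to 126 in E18.5 A, 3 to 83 in E18.5 B and 5 to 120 in E18.5 C. Because scores of different libraries may not share a scale, each peak was also ranked within its library as a percentile, with 100 the highest, and a site's percentile is the mean of its ranks in the 2 E13.5 libraries. Median scores of the whole lists were 14 and 17 in E13.5 A and B, and 6, 6 and 11 in E18.5 A, B and C. A lower score at E18.5 is thus not by itself a lower rank. The lowest-ranked member peaks of E18.5 A, B and C lay at percentiles 8.23, 9.11 and 14.4. Positions are mm9, counted from 1, and distances run from the gene's start to the centre of the site.

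Among AMPA subunits only Gria2, whose edited form makes AMPA channels nearly impermeable to calcium, had a site. It lay 204 bp upstream of the start (chr3:80606648-80607187). Scores were 14 in E13.5 A and 23 in E13.5 B (percentile 58.9), and 6 in E18.5 B, with no peak in E18.5 A or C.

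The 3 kainate subunits had 5 sites, all in introns and none called at E18.5. Grik2 had its site in intron 1, 3167 bp from the gene's start and 2190 bp upstream of the start of another of its transcripts (chr10:49505224-49505587), with scores of 11 and 12 (percentile 28.4). Grik3 had its sites in intron 1 as well. The one at chr4:125180066-125180546 scored 8 and 16 (percentile 29.9) and the one at chr4:125267710-125268215 scored 21 and 17 (percentile 62.1). Grik4, which forms high-affinity kainate receptors only together with other subunits, had its sites deep in the gene. The site in intron 1 (chr9:42627262-42627631) scored 16 in both libraries (percentile 51.6), and the site in intron 8 (chr9:42460849-42461238) scored 19 and 14 (percentile 52.1). Kainate sites thus filled the lower and middle ranks of the E13.5 lists.

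Grin1 encodes the subunit that every NMDA receptor needs. Its site lay in the untranslated part of exon 1, 191 bp from the start (chr2:25174221-25174812), and was called in all 5 libraries. The scores were 21 and 57 at E13.5 (percentile 86.1) and 9, 12 and 10 at E18.5 A, B and C. Grin2a, which supplies the glutamate-binding subunit of many adult NMDA receptors, had an intron 3 site 158 kb into the gene (chr16:9836596-9837046) with scores of 14 and 18 (percentile 51.7) and no peak at E18.5. Grin2b, Grin2c, Grin2d, Grin3a and Grin3b had no peak in any library.

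Grid1, a delta subunit of the synapse-organising kind, had a pair of sites. The one 3353 bp upstream (chr14:35629383-35629933) scored 11 and 25 (percentile 53.4) and was not called at E18.5. The one in intron 2 (chr14:35680386-35680905) scored 23 and 26 (percentile 77.8), and 4 in E18.5 A.

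The metabotropic receptors with a site included Grm5, which couples to phospholipase C, and Grm2, Grm4 and Grm8, which lower cyclic AMP. Grm2 had its site 221 bp upstream (chr9:106558391-106558932), with scores of 21 and 40 (percentile 83.8). Its scores in E18.5 A and B were 15 and 9, at percentiles 91.7 and 80.0 of those lists. Grm4 had an intron 3 site 46.5 kb into the gene (chr17:27603497-27604071) that scored 25 in both E13.5 libraries (percentile 78.7), then 7 and 5 in E18.5 A and B. Both receptors had the pattern of a peak in E18.5 A and B and none in C.

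Grm5 and Grm8 ranked far lower. The Grm5 site lay 14.4 kb upstream (chr7:94736413-94736755) and scored 9 in both libraries (percentile 15.0). The Grm8 site lay in intron 2, 153 kb into the gene (chr6:27932084-27932490), and scored 8 and 7 (percentile 8.60, the lowest of the 26). Neither was called at E18.5.

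Dlg2 (PSD-93) was the only Dlg gene with a site. It lay in intron 5, 766 kb into the gene but 5063 bp downstream of the start of a shorter Dlg2 transcript (chr7:98416266-98416747), and scored 8 and 15 (percentile 27.2) with no peak at E18.5. Dlg4, which encodes PSD-95 itself, had none.

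The Dlgap genes had 6 sites, and each gene had at least 1 that was called again at E18.5. Dlgap1 had its site at the start, 147 bp in and in the untranslated part of a transcript (chr17:70318312-70318808), with scores of 27 and 30 (percentile 85.0), then 9 in E18.5 B alone. The upstream Dlgap2 site (chr8:14072435-14073067) scored 45 and 78 (percentile 98.6, the highest of the 26), then 17, 16 and 15 in E18.5 A, B and C. It lies in an intron of the neighbouring gene Erich1, whose start is nearer (17550 bp) than that of Dlgap2, so its link to Dlgap2 rests on the 50-kb rule. The other Dlgap2 site, in intron 2 (chr8:14393124-14393560), scored 11 and 12 (percentile 28.4) and was not called at E18.5.

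Dlgap3 had an intron 1 site 4499 bp from the gene's start and 823 bp downstream of another Dlgap3 start (chr4:126850676-126851218). It scored 37 and 46 (percentile 95.6), then 13, 4 and 10 in the E18.5 libraries. Dlgap4 had an intron 1 site (chr2:156478497-156479023) with scores of 20 and 26 (percentile 74.1), then 17 in E18.5 C alone. Its intron 2 site (chr2:156502586-156503084) had nearly the same E13.5 scores, 22 and 24 (percentile 74.4), and no E18.5 peak.

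Shank1 had its site in intron 15, 25.6 kb from the start (chr7:51590904-51591465), and was called in every library. The scores were 31 and 43 (percentile 93.1), then 7, 6 and 12. Shank2 had its sites in intron 10 (chr7:151346097-151346432), with scores of 7 and 10 (percentile 11), and in intron 16 (chr7:151480161-151480613), with scores of 10 and 15 (percentile 33.1). Neither was called at E18.5. The Shank3 site (chr15:89283668-89284202) scored 33 and 35 (percentile 91.6), then 8 in E18.5 C alone. It lay 46.1 kb upstream of Shank3 and 409 bp upstream of the start of Mapk8ip2, which encodes a scaffold of the JNK signalling pathway and is the nearest gene.

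**Figure D3:**
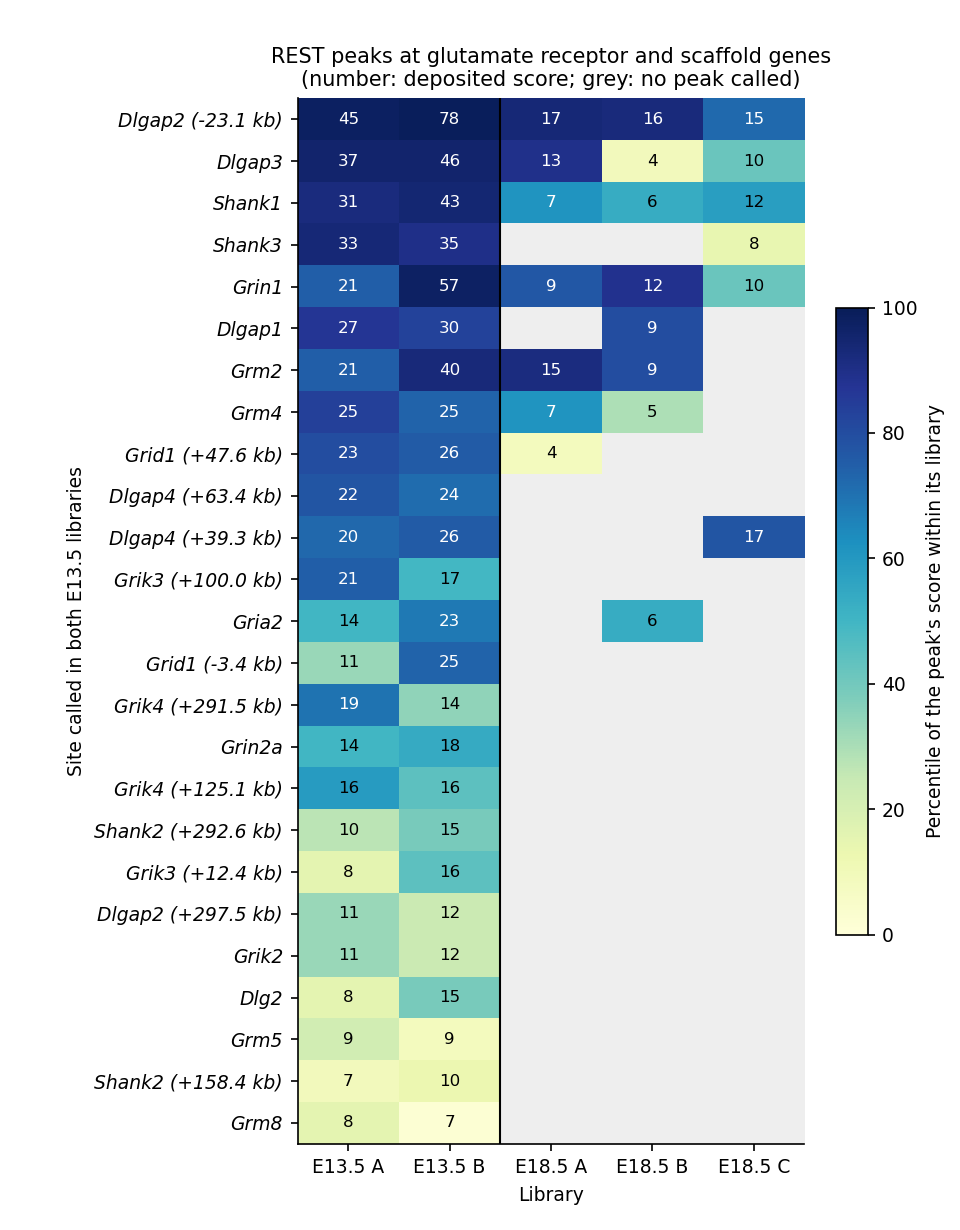
Member sites of both E13.5 libraries that are described singly (vertical axis, by mean E13.5 percentile) in the 5 libraries (horizontal axis). Numbers are deposited scores, colour is the percentile of the peak within its library, and grey means that no peak was called; E18.5 peaks fall in the upper rows, from Dlgap2 down to Gria2, and the rows below Gria2 have none.

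Of the 26 sites, 18 lay in introns, 2 in untranslated exons and 6 outside the gene body, all of them upstream. Within 5 kb of the member's start there were 8 sites, among them those of Gria2, Grik2, Grin1, Grid1, Grm2, Dlgap1 and Dlgap3, with a median percentile of 73.9, and 6 of them were called at E18.5. Deeper in the gene body there were 15, with a median of 51.7, and 4 were called at E18.5. Of the 3 sites further upstream (Grm5, Dlgap2 and Shank3), 2 were called at E18.5. The matching counts over all sites by position are not given, so this split cannot be read as particular to members. Seen against the starts of all coding genes, 26.9% of member sites lay within 1 kb of one, beside 18.8% of all sites of both E13.5 libraries, and 34.6% within 5 kb, beside 31.9%. The member shares include the Shank3 site, which lies 409 bp from the start of Mapk8ip2. Member sites lie by rule in a coding gene or near its start, and all sites have no such limit. Part of the difference thus follows from the rule.

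**Figure D4:**
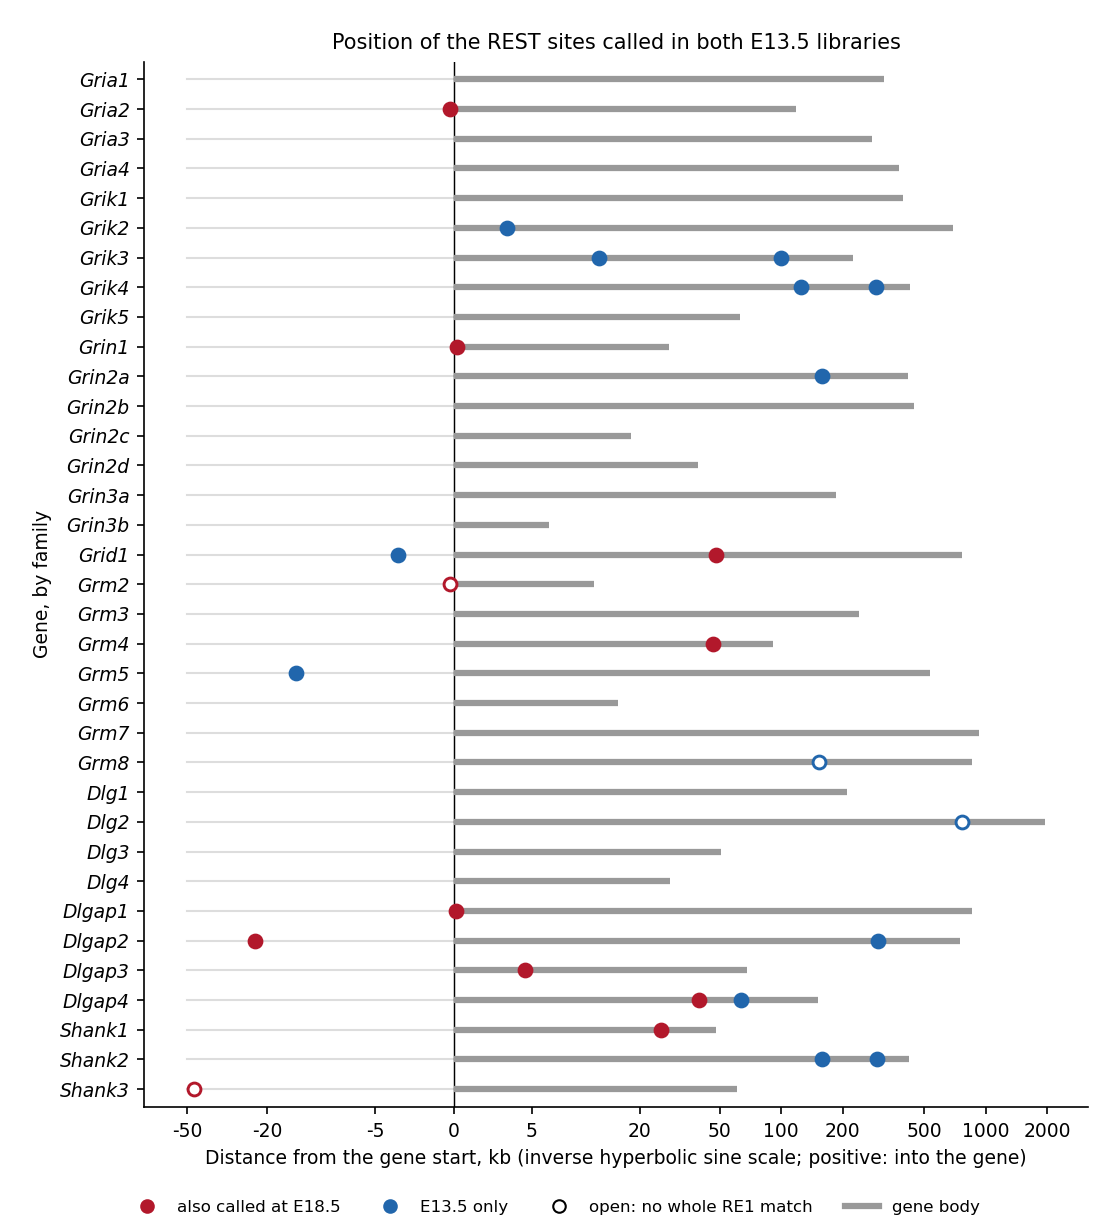
Distance of each site from the gene's start in kb (horizontal axis, inverse hyperbolic sine scale, positive into the gene) for the members described singly, by family (vertical axis), with gene bodies as grey bars. Red sites were also called at E18.5, blue ones only at E13.5, and open circles had no whole RE1 match (Grm2, Grm8, Dlg2 and Shank3).

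A further 5 sites were called at a single stage and in 1 library, and 4 of them are described here. In E13.5 A alone there was a site in Grik3 (chr4:125196228-125196367) and one in Dlgap1 (chr17:70996075-70996239), and in E13.5 B alone one in Grm8 (chr6:27863287-27863679). The Grik3 and Grm8 sites held an RE1 match, at 25.5 and 25.4 bits, and the Dlgap1 site did not. In E18.5 A alone there was a site in Grid1 (chr14:35667688-35667984), which held no match. No member thus had a site called in more than 1 E18.5 library that was missing at E13.5.

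Members had peaks in 20 genes in each E13.5 library and in 8, 9 and 6 genes in E18.5 A, B and C. Over all coding genes the share with a peak was 7.9%, 7.6%, 3.3%, 3.07% and 1.98% in the 5 libraries in this order. The means were 20 ± 0 (SD, n = 2) and 7.67 ± 1.53 (n = 3), a difference of 12.3 genes, and the groups did not overlap (exact two-sided permutation test, p = 0.2). In sites, the libraries held 28, 27, 9, 10 and 6, with means of 27.5 ± 0.707 and 8.33 ± 2.08 and a difference of 19.2 (exact permutation p = 0.2). With every list cut to its 226 highest-scoring peaks, the length of the shortest list, members had peaks in 6.5 ± 0.707 genes at E13.5 and 6 ± 0 at E18.5, and genes and sites each differed by 0.5 (exact permutation p = 0.8). With 2 libraries against 3 the smallest p possible is 0.2, so a comparison of stages over these libraries cannot reach significance. Adjusted over the 4 stage tests by Benjamini-Hochberg, the p-values with whole lists became 0.4.

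Relative to the length of each whole list, the mean share of member peaks was higher at E18.5 in each gene window. Whether the groups overlapped depended on the window. With the whole body and 50 kb, the groups overlapped. Member peaks made up 2% and 2.03% of the E13.5 lists and 1.66%, 2.40% and 2.65% of the E18.5 lists. The means were 2.01 ± 0.0180% and 2.24 ± 0.514%, a difference of -0.226 percentage points (exact permutation p = 0.6, adjusted 0.8). Their mean percentile within a library was 54.6 in E13.5 A, 57.8 in E13.5 B, 65.7 in E18.5 A, 54.5 in E18.5 B and 50.9 in E18.5 C, a difference of -0.862 between means of 56.2 ± 2.22 and 57.0 ± 7.75 (exact permutation p = 1). Within 50 kb of the start only, member peaks made up 1.21 ± 0.00989% of the E13.5 lists and 2.16 ± 0.496% of the E18.5 lists (-0.952 points), and within 5 kb 0.586 ± 0.0203% and 1.02 ± 0.369% (-0.435 points). In both windows the groups did not overlap, with E18.5 higher (exact permutation p = 0.2, the smallest possible). The matching share of peaks near the starts of all coding genes is not given, so this cannot be read as particular to members. With each list cut to its 226 highest-scoring peaks and the whole window kept, the difference in percent was 0.221 points and that in percentile 2.48 (exact permutation p = 0.8 for both).

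At E18.5, 12 of 37 members had a site in at least 1 library (4.98% of all coding genes) and 7 of 37 (18.9%) in at least 2 (2.21%). The 7 included Grin1, Grm2, Grm4, Dlgap2, Dlgap3 and Shank1. Leaving out E18.5 A or E18.5 B reduced them to the same number, 4, and leaving out C kept 7. Grin1, Dlgap2, Dlgap3 and Shank1 were called in all 5 libraries. Within 5 kb of the start, 4 of 37 members had a site in at least 2 E18.5 libraries (0.607% of all coding genes).

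Of the 26 member sites, 12 (46.2%, exact interval 26.6 to 66.6%) were called again in at least 1 E18.5 library, beside 40.5% of the 1186 sites of both E13.5 libraries (480 sites), a value inside the interval. The 1186 sites include the 26, and all share the same libraries, so the interval is given as a description and tests no difference. In E18.5 A there were 8, in B 9 and in C 6. Calls in all 5 libraries were made at 15.4% of member sites and 9.53% of all sites. Whether a site was called again went with its E13.5 rank. The 12 sites called again had percentiles of 58.9 to 98.6 (median 84.4) and the 14 others 8.60 to 74.4 (median 31.5). In 5 equal parts of the E13.5 ranking, from the lowest, member sites were called again in 0 of 6, 0 of 2, 1 of 6, 4 of 5 and 7 of 7 cases, beside 8.82%, 13.8%, 34.6%, 55.3% and 90.3% of all sites. The E18.5 lists were also shorter, with 226 to 541 peaks against 1333 and 1400, and the part of list length in this was not tested.

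The score of the RE1 element went loosely with rank. Over the 22 member sites with a match Spearman's rho between score and percentile was 0.41, and over 938 other sites it was 0.33. The points share their libraries, and rho is given as a description. Whole matches were not needed for a high rank. The Shank3 and Grm2 sites, at percentiles 91.6 and 83.8, had arms 7 bases apart and no whole element, and Dlgap1, at 85.0, had the element farthest from the consensus. At the other end Grm5 had 3 mismatches and a percentile of 15.0.

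**Figure D5:**
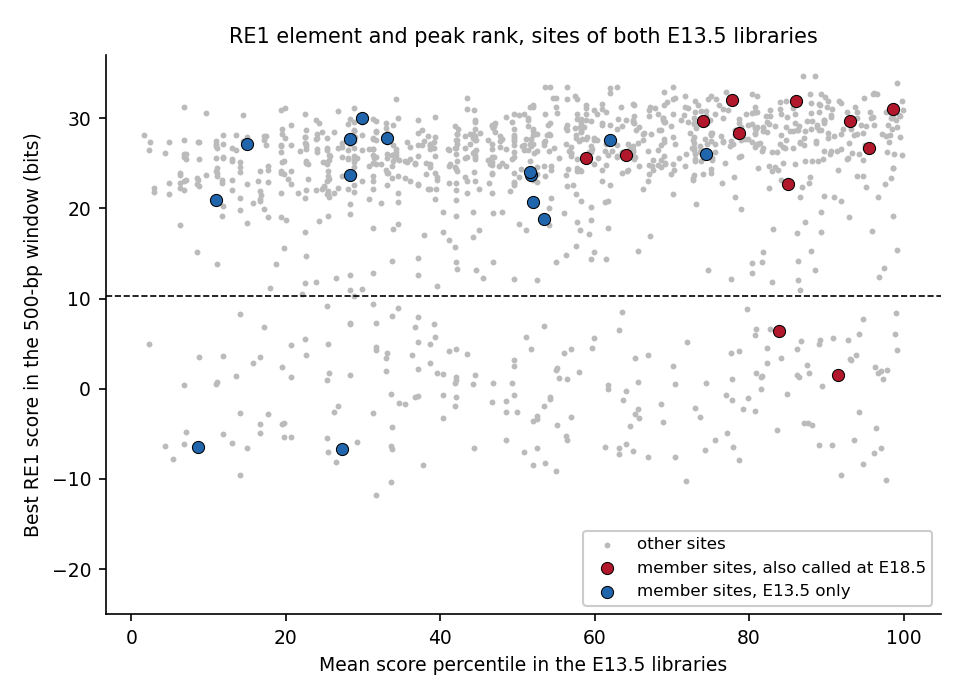
Best RE1 score in the 500-bp window, in bits (vertical axis), against mean E13.5 percentile (horizontal axis) for sites of both E13.5 libraries, with member sites coloured by whether they were also called at E18.5 and other sites in grey. The dashed line is the score limit; the 4 member sites below it are Grm2, Shank3, Dlg2 and Grm8, and all member sites called at E18.5 lie at percentile 58.9 or above.

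Other genes of the glutamatergic synapse were counted by the same rule. Auxiliary subunits of AMPA and kainate receptors, which set channel trafficking and gating, had a site in both E13.5 libraries in 9 of 14 cases, and in at least 2 E18.5 libraries in 3. Other genes of the postsynaptic density had one in 5 of 24 and 2 of 24 cases, and genes for glutamate transport and supply in 2 of 12 and 0 of 12. Beside these lists, receptors for GABA, glycine and acetylcholine (nicotinic) had one in 10 of 40 and 5 of 40 cases, and voltage-gated calcium and sodium channels in 12 of 32 and 4 of 32. Over all coding genes the shares were 6.93% and 2.21%. Median gene lengths of the 5 lists, in this order, were 80.6, 99.0, 46.3, 31.0 and 111 kb, beside 240 kb for members. Within 50 kb of the start only, the E13.5 counts became 6, 2, 2, 10 and 10, beside 15 of 37 members (6.32% of all genes).

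The 6 synapse genes outside the members with the highest E13.5 rank were Cacng2, Grip2, Cnih2, Cacng3, Grip1 and Kalrn. Cacng2 encodes stargazin, which carries AMPA receptors to the membrane, and its highest-ranked site lay 92 bp from the start in the untranslated part of the gene, at percentile 99.2. It was called in all 3 E18.5 libraries and had no whole RE1 match. The related gene Cacng3 had a site 0.735 kb upstream, at percentile 82.9, also called in all 3. Grip1 and Grip2, scaffolds that bind AMPA receptor tails, had sites in an intron 252 kb into the gene (74.7, called in 3 E18.5 libraries) and 12.5 kb upstream (85.3, called in 1).

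Cnih2, another AMPA receptor auxiliary subunit, had a site 10.4 kb downstream of its start, beyond the end of the gene, at percentile 83.6 that was not called at E18.5. The nearest start there is that of Yif1a. It had no whole element, but its arms stood 7 bases apart with 0 mismatches, as at Grm2. Kalrn, which encodes an exchange factor of dendritic spines, had an intron site 173 kb into the gene at percentile 74.1, called in 2 E18.5 libraries.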

How the data were processed

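The authors aligned reads with Bowtie2 2.2.5 and called peaks with MACS2 2.1.0. For its E13.5 peak set the study merged the replicates and applied a stricter rate, so that set differs from the deposited lists, which hold 1 library each. SAMtools is also named in the submitters' processing notes, which list the builds NCBI36 and mm9. File names state removal of duplicates, a mapping quality of 10 and a false discovery rate of 10%. The deposited score of each peak, a whole number of unstated unit, was used only for ranks within a library.

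Overlapping entries of a library were merged (7, 2, 4, 2 and 3), and peaks sharing at least 1 bp across libraries formed sites. All positions fit mm9 chromosome lengths. Genes came from GENCODE vM1. The RE1 matrix was grown from an 8-base seed over 10 rounds. The members and lists were chosen with earlier results of these data known. Members were named with values for each site of both E13.5 libraries, except a few that are not reported here and enter the totals only, with the 6 highest-ranked other synapse genes. The arm search and the count of repeated elements were added after values were seen. Scripts used Python 3.11.15, pandas 2.3.3, scipy 1.17.1 and pysam 0.24.0 and were tested on simulated data. Alternatives were the 226 highest-scoring peaks, narrower gene windows, any transcript start, 50% overlap, each library left out, a replicate block, a 200-bp window and a stricter RE1 limit. An alternative counting only sites whose nearest coding start is the member's was chosen after seeing the data. Intervals cover counting error only.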

Additional observations from a re-analysis of the deposited data

How the results depend on the processing

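Differences are E13.5 minus E18.5. With only the 226 highest-scoring peaks of each list, the difference in the percent of peaks at members turned to 0.221 and that in mean percentile, ranked within the kept peaks, to 2.48, genes and sites per library each differed by 0.5, and the counts fell to 5 genes in both E13.5 libraries, 5 sites called again of 5, and 4 RE1 matches of 5. Within 50 kb of the start only, the percentile difference turned to 10.1, the percent of peaks differed by -0.952 with no overlap of the groups, genes by 7.33 and sites by 8.5, 12 of 16 sites were called again and RE1 matches numbered 14 of 16. Within 5 kb only, it turned to 10, the percent of peaks differed by -0.435 with no overlap, genes and sites by 4 each, and the counts were 8 genes in both E13.5 libraries, 4 in at least 2 E18.5 libraries, 6 sites called again of 8 and 7 RE1 matches of 8. The counts are lower there because fewer sites enter. For the percent of peaks in these narrower windows, no matching share over all coding genes is given. Leaving out each library in turn gave percentile differences of -3.94 to 3.49, turning to 0.707 without E13.5 A and to 3.49 without E18.5 A. It gave 11.5 to 13 for genes per library, 18 to 20 for sites, -0.514 to -0.0181 for the percent of peaks and 4 to 7 genes in at least 2 E18.5 libraries. The smallest exact p was then 0.333 or 0.5.

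Letters are shared by libraries of both stages but nothing in the labels pairs them. With a replicate block of letters A and B, without E18.5 C, the differences were 11.5 genes, 18 sites, -0.0181 points and -3.94 percentile points, and the smallest p with 2 pairs is 0.5. Counting only sites whose nearest coding start is the member's, chosen after seeing the data, left 19 genes in both E13.5 libraries, 6 in at least 2 E18.5 libraries, 10 of 23 sites called again and 20 of 23 with a match. A 200-bp window kept 20 matches and the stricter limit 18. A start at any transcript or 50% overlap left these values as they were. Unknown read depth limits every statement about peaks that were not called.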
